A study of Arabidopsis thaliana with 8 samples.

Results

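The 5 genes described here encode subunits of the photosynthetic machinery that are made in the cytosol and imported into the chloroplast. They are PSBY (AT1G67740, probe set 245195_at) and PSBW (AT2G30570, 267526_at) of photosystem II, PSAN (AT5G64040, 247320_at) and PSAE-1 (AT4G28750, 253738_at) of photosystem I, and ATPC1 (AT4G04640, 255290_at) of the chloroplast ATP synthase. Members were chosen by probe set identifier, 5 of the 22810 probe sets on the array, and all 5 were among the 15296 probe sets bright enough to be tested. Each of the 5 probe sets is paired with 1 gene in the platform's gene table, on chromosomes 1, 2, 5, 4 and 4 of RefSeq's TAIR10.1 in the order given.

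The samples were developing leaves, insertions 19 to 21, of Arabidopsis thaliana Col-0, read with 8 Affymetrix ATH1 arrays; on this design each transcript is read by a probe set of short oligonucleotides. The labels name no transgene or mutant. All plants grew in a growth room on compost at 20 °C and 50% humidity with 10 h of light, and all leaves were taken at 0 h. In the elevated group (4 arrays) the labels describe a steady state in elevated CO2, and those of replicates 1 and 2 state that the plants had been grown in it. The level, 750 ppm, and a 24 h adjustment in a cuvette before harvest are given for elevated replicate 1 only. For elevated replicate 4 the label has the word elevated but does not mention CO2. The not-elevated group (4 arrays) holds the arrays whose labels name no elevated CO2. Its replicate 1 has a title code of its own and the letter A where replicates 2 to 4 are called controls, so the comparison was also made without it. The growth description common to all 8 arrays calls the atmosphere normal. The labels name no separate plants or cultures for the replicates, so the p-values rest on a sample-to-sample spread that may be technical.

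Photosystem II takes electrons from water, photosystem I passes them on to ferredoxin, and the ATP synthase uses the proton gradient built up in between. Each complex is a mosaic: its reaction-centre or catalytic core proteins are largely encoded in the chloroplast genome. Many other subunits, including the 5 described here, are encoded in the nucleus. In young leaves these nuclear genes are among the strongly expressed ones, and in many plants their transcripts are known to respond to light and to sugar.

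The signals are in array units, with each array scaled to a trimmed mean of 100 units. The arrays differed at the bright end, where all 5 genes lie. The 99th percentile of the signals was 1605 units in not-elevated replicate 2 and between 1802 and 1907 units on the other 7 arrays. On that array the control probe set for 25S ribosomal RNA read 600.2 units, against 73.4 to 146.5 units in the other not-elevated arrays and 95.8 to 365.5 units in the elevated arrays. Ratios of 3′ to 5′ control signals, a gauge of RNA integrity, overlapped between the groups, with 1.00 to 1.197 and 1.03 to 1.25 for GAPDH and 1.66 to 2.04 and 1.41 to 2.29 for actin (not-elevated and elevated). Rubisco activase RCA, a mesophyll marker, read 3057 ± 492 units in the not-elevated and 3445 ± 223 units in the elevated group (SD, n = 4 each). It was the 1 of 6 listed mesophyll markers named on the array by the tables used here. The root-hair expansin gene EXPA7, the 1 of 6 root markers named, read 27.6 ± 1.90 and 24.9 ± 11.5 units. The stomatal gene FMA read 62.0 ± 12.5 and 63.4 ± 7.43 units, and its relative MUTE 17.9 ± 12.04 and 13.8 ± 5.88 units, below the filter for testing. The senescence-list gene PPDK read 48.0 ± 24.96 and 16.7 ± 3.07 units. None of the tested markers passed the limma threshold used for all probe sets, and the markers listed for meristem and vascular tissue are not named in the tables used here. In whole leaves, fewer cells of a type and less RNA per cell cannot be told apart.

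The question of the comparison is whether these subunit transcripts differed at 0 h between leaves labelled as steady state in elevated CO2 and leaves not labelled so. Mean signals of all 5 genes were higher in the elevated group, by 16.2% for PSBY, 14.4% for ATPC1, 10.7% for PSAN, 2.86% for PSBW and 0.20% for PSAE-1. None of the 5 passed the threshold, a limma adjusted p of 0.05 over all tested probe sets, which 0.314% of them passed. On simulated arrays this test recovered 0 of 200 changes of 1.2-fold, so real differences as small as these could be missed. The changed probe sets were drawn from all tested ones, most of them dimmer than these 5 genes. Recovery at the signal of the 5 genes was not tested. The groups overlapped in all 5 genes, whereas 6.11% of all tested probe sets had groups that did not overlap. After quantile normalization, which gives all arrays the same distribution of signals, 3 of the 5 were higher and 2 lower, again with overlap in all 5 and no gene past the threshold. In those values 0.196% of tested probe sets passed and 6.21% had groups that did not overlap.

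**Figure D1:**
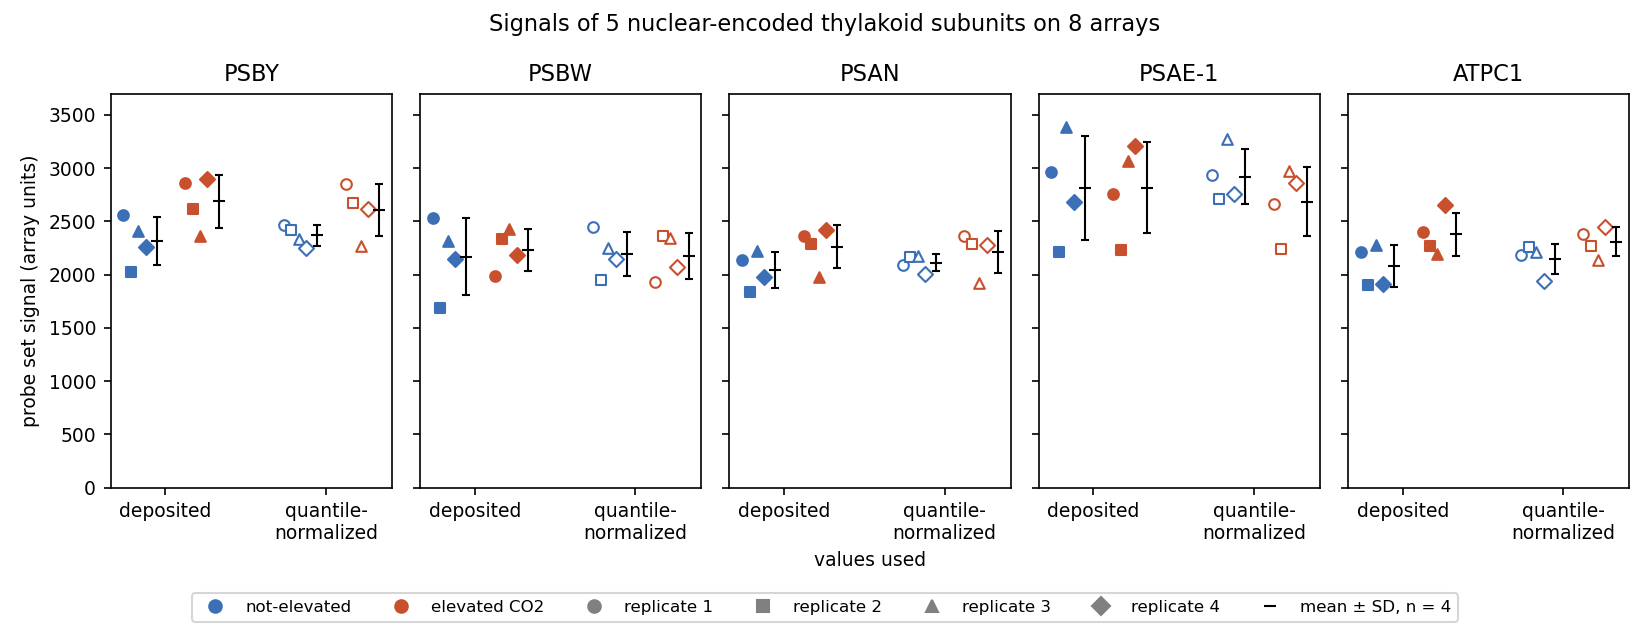
Probe set signal in array units (linear axis from 0) of the 5 genes, with 1 point per array, blue for not-elevated and red for elevated, filled for deposited and open for quantile-normalized values, and black bars for the mean ± SD of 4 arrays. Not-elevated replicate 2 (blue squares) is the lowest deposited point for every gene, and the groups overlap in every panel.

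PSBY encodes a precursor that is cut into small membrane peptides at the edge of photosystem II. In the not-elevated group it read 2557, 2026, 2407 and 2261 units in replicates 1 to 4. In the elevated group it read 2862, 2619, 2366 and 2900 units. Thus 3 of the 4 elevated arrays stood above every not-elevated array, and elevated replicate 3 lay among the not-elevated values. The means were 2313 ± 226 and 2687 ± 247 units (SD, n = 4 each). The log2 difference was 0.22 ± 0.097 (SE), with a 95% interval from 0.0074 to 0.42, which is 1.01-fold to 1.34-fold. Its unadjusted p of 0.0434 was 1 of the 11.1% of tested probe sets with a p under 0.05, and the limma adjusted p was 0.430. With quantile normalization the difference was 0.13 ± 0.070, with an interval from -0.020 to 0.28 and a limma adjusted p = 0.519.

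PSBW encodes a small membrane protein that helps to hold photosystem II together with its antenna. Its not-elevated signals were 2527, 1686, 2317 and 2147 units and its elevated signals 1985, 2336, 2425 and 2179 units, in replicates 1 to 4. The highest and the lowest of the 8 values were both not-elevated arrays, replicates 1 and 2. The means were 2169 ± 358 and 2231 ± 193 units (SD, n = 4 each). The log2 difference was 0.052 ± 0.12 (SE), with a 95% interval of 0.87-fold to 1.23-fold and a limma adjusted p = 0.915. Quantile normalization turned the sign (-0.012 ± 0.084, limma adjusted p = 0.976). Within photosystem II the 2 genes therefore did not share an order of arrays: elevated replicate 1 was the 2nd highest array for PSBY and the 7th for PSBW.

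PSAN encodes the photosystem I subunit on the lumen side that takes part in the docking of plastocyanin. It read 2141, 1834, 2219 and 1978 units in not-elevated replicates 1 to 4 and 2365, 2285, 1974 and 2423 units in elevated replicates 1 to 4. As for PSBY, elevated replicates 1, 2 and 4 lay above all 4 not-elevated arrays, and elevated replicate 3 was the 7th of the 8. The means were 2043 ± 172 and 2262 ± 200 units (SD, n = 4 each), and the log2 difference was 0.15 ± 0.093 (SE), with a 95% interval of 0.96-fold to 1.27-fold. The limma adjusted p was 0.609. With quantile normalization the difference was 0.062 ± 0.070 and the limma adjusted p = 0.800.

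PSAE-1 encodes a stromal subunit of photosystem I near the docking site of ferredoxin and has a close relative, PSAE-2, for which the tables used here name no probe set. Whether the PSAE-1 probes also read PSAE-2 transcripts was not tested. Its signals ran from 2216 units in not-elevated replicate 2 to 3381 units in not-elevated replicate 3, with 2963 and 2682 units in replicates 1 and 4. The elevated arrays read 2757, 2234, 3067 and 3206 units in replicates 1 to 4, within the range of the not-elevated group. The means were 2811 ± 489.5 and 2816 ± 431 units (SD, n = 4 each). The log2 difference was 0.0062 ± 0.13 (SE), with a 95% interval of 0.82-fold to 1.23-fold and a limma adjusted p = 0.994. Quantile normalization gave -0.12 ± 0.088, with an interval from -0.32 to 0.066 and a limma adjusted p = 0.643. In those values elevated replicate 2 read 2239 units and the other elevated arrays 2659 to 2975 units, against 2713 to 3277 units in the not-elevated group.

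ATPC1 encodes the main gamma subunit, the rotating stalk of the chloroplast ATP synthase, on which the enzyme's redox switch sits. It read 2216, 1902, 2280 and 1916 units in not-elevated replicates 1 to 4 and 2399, 2271, 2191 and 2650 units in elevated replicates 1 to 4. Only elevated replicates 1 and 4 exceeded the highest not-elevated array, but all 4 elevated arrays lay above the not-elevated mean of 2078 ± 197 units. The elevated mean was 2378 ± 200 units (SD, n = 4 each). The log2 difference was 0.19 ± 0.094 (SE), with a 95% interval from -0.0065 to 0.40 and a limma adjusted p = 0.474. With quantile normalization it was 0.10 ± 0.067 (limma adjusted p = 0.597), and elevated replicates 1, 2 and 4 then lay above all not-elevated arrays.

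The values of the 5 genes moved partly with the bright end of each array. The 547 tested probe sets with a mean of at least 1000 units had a median log2 difference of 0.077, with 408 higher and 139 lower in the elevated group, whereas all tested probe sets had a median of 0.0013 with 50.4% higher. The median of the 5 genes was 0.15. With quantile normalization the bright probe sets had a median of 0.0093, with 296 higher and 251 lower, and the 5 genes a median of 0.062. In not-elevated replicate 2 the median bright probe set lay 0.19 below its own mean over the 8 arrays on the log2 scale, and the 5 genes lay between 0.22 and 0.37 below theirs. Without that array the bright median was 0.024 and the differences of the 5 genes were 0.15 for PSBY, 0.15 for ATPC1, 0.095 for PSAN, -0.063 for PSBW and -0.10 for PSAE-1. The part of that array's distribution or of its ribosomal RNA signal in these values was not tested.

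Taken relative to the bright median on each array, the log2 differences were 0.15 for PSBY, 0.12 for ATPC1, 0.075 for PSAN, -0.018 for PSBW and -0.064 for PSAE-1. Without not-elevated replicate 2 they were 0.14, 0.14, 0.077, -0.082 and -0.12 in the same order, so that the values of PSBW and PSAE-1 depended on that array. The relative values of PSBY were -0.074 ± 0.051 in the not-elevated and 0.072 ± 0.13 in the elevated group, and those of ATPC1 were -0.063 ± 0.088 and 0.061 ± 0.094 (SD, n = 4 each). Those of PSAE-1 were 0.031 ± 0.16 and -0.033 ± 0.20. These relative values were not tested.

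**Figure D2:**
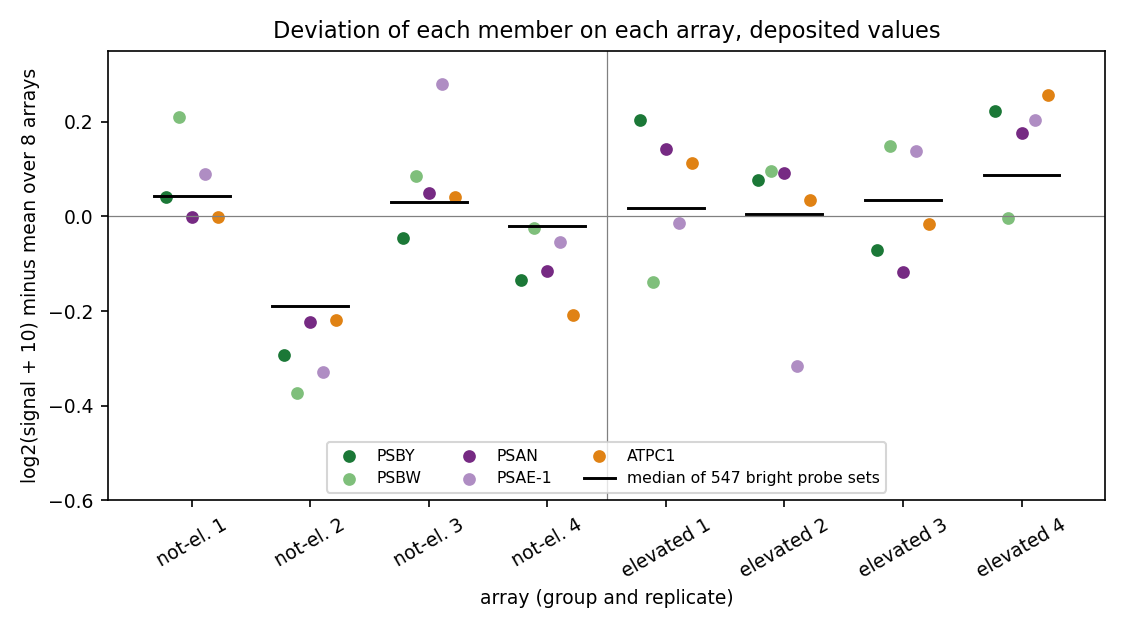
Deviation of log2(signal + 10) from the gene's own mean over 8 arrays (vertical axis), with 1 coloured point per gene on each array and a black line for the median of 547 probe sets with a mean of at least 1000 units. All 5 genes and the bright median are low in not-elevated replicate 2, PSBW lies below the other 4 in elevated replicate 1, and PSAE-1 does in elevated replicate 2.

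The genes also differed in how much they varied within a group. The pooled SD within groups on the log2 scale was 0.13 for PSAN and for ATPC1, 0.14 for PSBY, 0.20 for PSBW and 0.24 for PSAE-1. The median over the 547 bright probe sets was 0.13, and 533 of them varied less than PSAE-1 and 495 less than PSBW. With quantile normalization the SDs were 0.10, 0.093, 0.11, 0.14 and 0.16 in the same order, with a bright median of 0.098. PSBW and PSAE-1 therefore also had the widest intervals of the 5 genes.

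Leaving out 1 array at a time brought none of the 5 genes past the threshold. PSBY, PSAN and ATPC1 were higher in the elevated group in all 8 such fits, with log2 differences of 0.15 to 0.28, 0.095 to 0.21 and 0.14 to 0.24. PSBW ran from -0.063 to 0.13 and PSAE-1 from -0.10 to 0.11. Without elevated replicate 3, the array in which PSBY, PSAN and ATPC1 were lowest among the elevated arrays, the difference was 0.28 for PSBY (limma adjusted p = 0.265), 0.23 for ATPC1 (0.358) and 0.21 for PSAN (0.376). Leaving out the lowest elevated array raises a difference by construction. Without elevated replicate 4, in which these genes were highest, it was 0.18 for PSBY (limma adjusted p = 0.699), 0.14 for ATPC1 (0.756) and 0.11 for PSAN (0.830). Without not-elevated replicate 1, the array with its own title code, the differences were 0.27 for PSBY, 0.23 for ATPC1, 0.17 for PSAN, 0.13 for PSBW and 0.037 for PSAE-1.

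**Figure D3:**
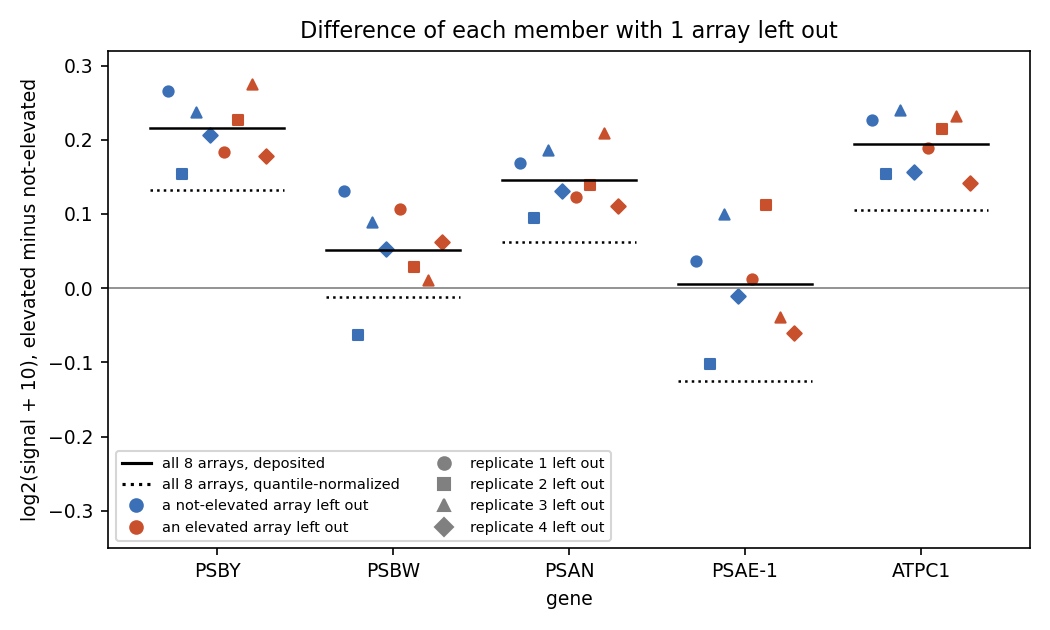
Log2 difference, elevated minus not-elevated, of each gene with 1 array left out (points, coloured by the group and shaped by the replicate left out), beside the values with all 8 arrays as deposited (solid line) and quantile-normalized (dotted line). PSBY, PSAN and ATPC1 stay above 0 in every setting drawn, while PSBW and PSAE-1 cross it.

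Ratios between 2 of the genes on the same array do not depend on a scaling factor of that array, beyond the pseudocount, and show whether the subunits moved unequally. Their size also depends on the probes, so that only their differences between groups are described. None of the 10 pairs had groups that did not overlap. The log2 ratio of PSBY over PSAE-1 was -0.27 ± 0.15 in the not-elevated and -0.059 ± 0.26 in the elevated group (SD, n = 4 each), and that of PSAE-1 over ATPC1 was 0.42 ± 0.15 and 0.23 ± 0.21. The ratio of PSBY over ATPC1 was 0.15 ± 0.081 and 0.17 ± 0.067, and ran from 0.078 to 0.25 over the 8 arrays. That of PSAN over ATPC1 was -0.024 ± 0.047 and -0.073 ± 0.079. That of PSBY over PSAN was 0.18 ± 0.061 and 0.25 ± 0.035, a difference of 0.070 against a pooled SD of 0.050. In the deposited values, only for this pair and for PSAE-1 over ATPC1, where the difference was -0.19 against an SD of 0.18, did the groups differ by more than the pooled SD. With quantile normalization the differences were 0.070 against 0.044 for PSBY over PSAN and -0.23 against 0.17 for PSAE-1 over ATPC1. PSBY over PSAE-1 then also exceeded its pooled SD, at 0.26 against 0.22. No ratio was tested, and a ratio shows only that a pair moved unequally.

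Of the wider list of 58 nuclear loci for photosystems, ATP synthase, cytochrome b6f with carriers, and antenna, 11 are named on the array by the tables used here, and all 11 were tested. Of these, 9 were higher and 2 lower in the elevated group, none passed, and the median log2 difference was 0.14, beside 0.0013 over all tested probe sets and 0.077 over the bright ones. With quantile normalization 6 were higher and 5 lower and the median was 0.048. The 6 that are not among the 5 genes had a median of 0.091 (0.023 with quantile normalization).

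PSB27, which takes part in the assembly and repair of photosystem II, read 1924 ± 278 units on not-elevated and 1892 ± 175 units on elevated arrays (log2 difference -0.017 ± 0.11 SE, limma adjusted p = 0.973). ATPC2, the other gamma subunit gene, read 44.6 ± 2.34 and 44.4 ± 4.64 units (-0.0094 ± 0.11, limma adjusted p = 0.988). AT2G26500, held by locus in the list of cytochrome b6f and carriers, read 2614 ± 321 and 2675 ± 56.1 units (0.041 ± 0.094, limma adjusted p = 0.918), and -0.061 with quantile normalization.

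The 3 antenna genes named on the array encode CP29, the minor antenna protein that links photosystem II to its outer antenna. LHCB4.1 read 3062 ± 321 and 3517 ± 408 units, and LHCB4.2 2382 ± 270 and 2624 ± 267 units, with log2 differences of 0.20 ± 0.10 and 0.14 ± 0.10 that were 0.051 and 0.048 with quantile normalization. In LHCB4.3 the groups did not overlap, at 457 to 510 units against 529 to 573 units. Groups did not overlap in 6.11% of all tested probe sets in the deposited values. The LHCB4.3 difference was 0.16 in the deposited and 0.17 in the quantile-normalized values, with limma adjusted p-values of 0.457 and 0.420.

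**Figure D4:**
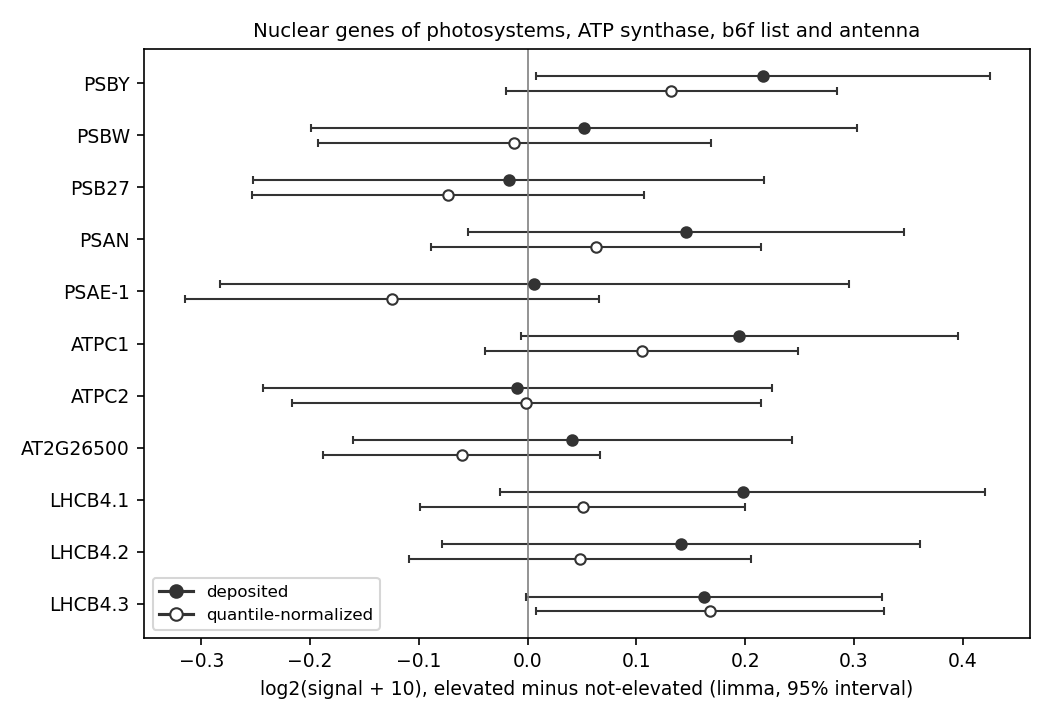
Log2 difference, elevated minus not-elevated, with the 95% interval of the limma fit for 11 nuclear genes, filled for deposited and open for quantile-normalized values. Open points lie to the left of filled ones for the bright genes, and for PSBW, PSAE-1 and AT2G26500 they lie on the other side of 0.

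The plastid-encoded partners of the same complexes were read beside the nuclear ones. Whether the labelling read plastid and nuclear transcripts alike was not tested. Of all tested probe sets 50.4% were higher in the elevated group, and of those with a mean of at least 1000 units 74.6%. These shares were 50.8% and 54.1% with quantile normalization. In photosystem I all 5 plastid-encoded genes on the array were higher in the elevated group, psaI by only 0.0013 on the log2 scale. None was past the threshold, and the median log2 difference was 0.22. With quantile normalization 4 were higher, psaI was lower (-0.042), and the median was 0.12. The reaction-centre gene psaB read 2811 ± 261 and 3350 ± 72.1 units (SD, n = 4 each) with groups that did not overlap, a log2 difference of 0.26 and a limma adjusted p of 0.267. With quantile normalization the psaB groups overlapped and the difference was 0.12. The gene psaJ, for a small membrane subunit, read 2303 ± 295 and 2530 ± 335 units. The nuclear photosystem I genes PSAN and PSAE-1 had differences of 0.15 and 0.0062 beside these. Of 15 photosystem II genes of the plastid, 8 had higher and 7 lower means in the elevated group (median 0.0024), from -0.26 for psbN to 0.38 for psbD. With quantile normalization 6 were higher and 9 lower (median -0.048). The small subunit genes psbM and psbZ read 2767 ± 316 and 3126 ± 619 units and 2005 ± 291 and 1983 ± 276 units. Of 6 plastid-encoded ATP synthase genes 4 were higher and 2 lower (median 0.023), which turned to 1 higher and 5 lower with quantile normalization (median -0.083). Beside ATPC1, the catalytic subunit gene atpB read 3544 ± 445 and 3821 ± 446 units and its neighbour atpE 3170 ± 341 and 3210 ± 289.7 units, and with quantile normalization their log2 differences were -0.058 and -0.12. None of the 26 plastid-encoded subunit genes passed the threshold. Groups that did not overlap were found for psaB and psbC in the deposited values, beside 6.11% of all tested probe sets, and for none of the 26 with quantile normalization.

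**Figure D5:**
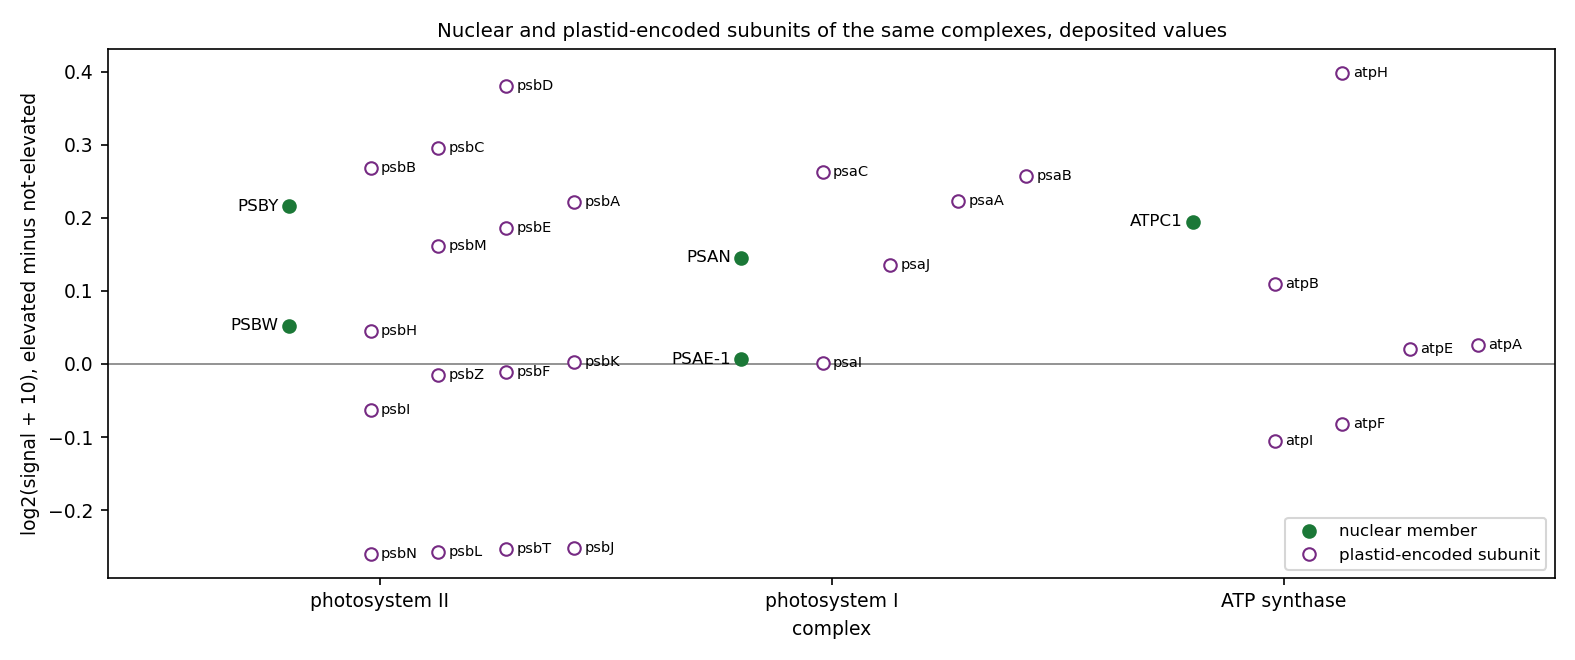
Log2 difference, elevated minus not-elevated, of the 5 nuclear genes (filled) and of the plastid-encoded subunit genes on the array (open) by complex, from the deposited values. The plastid-encoded photosystem I genes lie at or above 0, while those of photosystem II and the ATP synthase lie on either side of it in these values.

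Few genes that assemble or regulate these complexes are named on the array by the tables used here. The 4 tested of 12 assembly loci were each lower in the elevated group in the deposited and the quantile-normalized values, and none passed. Of all tested probe sets, 7592 of 15296 were lower in the deposited and 7531 of 15295 in the quantile-normalized values. The assembly medians were -0.080 and -0.071, and -0.019 in the deposited values without not-elevated replicate 1. AT5G28750 read 620 ± 77.6 and 574 ± 79.1 units, and HCF101, needed for the iron-sulfur clusters of photosystem I, 326 ± 43.9 and 306 ± 29.2 units. Of 3 chlorophyll synthesis genes 2 were higher and 1 lower, none past the threshold. PORB, a protochlorophyllide reductase, read 578 ± 91.2 and 444 ± 117 units (log2 difference -0.39 ± 0.16 SE, limma adjusted p = 0.379), and CHLM, a methyltransferase of the pathway, read 1141 ± 99.4 and 1305 ± 121 units (0.19 ± 0.092, 0.470). HYH, a bZIP factor of light signalling and the 1 of 11 regulator loci tested, fell from 154 ± 13.1 to 86.1 ± 27.4 units (limma adjusted p = 0.0476). That call ended with quantile normalization (limma adjusted p = 0.0623) and without any single array other than elevated replicate 3 (limma adjusted p from 0.0519 to 0.154), while the log2 difference stayed between -0.73 and -0.98.

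Likeness of profile was measured as the root mean square difference between centred log2(signal + 10) profiles over the 8 arrays, against 8513 other probe sets with 1 gene. PSBY, PSAN and ATPC1 were close to one another, at distances of 0.056 for PSBY and PSAN, 0.065 for PSBY and ATPC1, and 0.061 for PSAN and ATPC1. Placed by distance among the 8513 other probe sets, members not counted, the remaining 2 came no lower than place 12 for each of these 3 genes. PSBW and PSAE-1 were farther away, at 0.18 to 0.21 from these 3 genes and at 0.19 from each other. The member nearest to PSAE-1 was ATPC1, in place 336 by distance.

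By this measure the other genes most like ATPC1 were LHCB4.1 (distance 0.045) and CYTC-1, a cytochrome c gene (0.055), with mean signals of 3289 and 1335 units. Those most like PSBY were AT5G38510 (0.035) and AT3G61260 (0.050), those most like PSAN were BGLU16 (0.026) and AT1G26090 (0.043), those most like PSBW were AT3G59840 (0.049) and AT1G42960 (0.054), and those most like PSAE-1 were AT1G50040 (0.092) and AT3G49900 (0.094). Log2 differences of these 10 genes ran from -0.020 to 0.22, and none passed the threshold. The genes most like PSBY, PSBW, PSAN and PSAE-1 were dimmer than these members, with mean signals of 31.1 to 936 units. All profiles share the same 8 arrays and their scaling. The low bright end of not-elevated replicate 2 was seen in probe sets with a mean of at least 1000 units, which these dimmer genes are not.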

How the data were processed

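Biotin-labelled total RNA of leaves was read on 8 arrays. The authors deposited linear intensity values per probe set, made with MAS5 according to the submitters' processing notes; no version is named in the sources used here. Each deposited array has a mean of 100 units after trimming 2% at either end, so a change shared by all transcripts would not show.

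Control probe sets (64) were left out, and those with a mean of at least 20 units were tested (15296 of 22746). The main test was limma 3.58.1 in R 4.3.3 (lmFit, eBayes with a trend) on log2(signal + 10), a scale that understates changes of dim genes. P-values are two-sided and adjusted by Benjamini-Hochberg over all tested probe sets at 0.05. The test was checked on simulated arrays in which 200 of 15296 probe sets, drawn at random, were changed, with noise independent between probe sets. It recovered 0 of the 200 at 1.2-fold, 109 (54.5%) at 1.5-fold and 190 (95%) at 2-fold. Real changes of 1.2-fold or less could therefore be missed at this threshold. Quantile normalization covered the 22746 probe sets.

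Names came from the platform's table and RefSeq's table for TAIR10.1, with 1 gene for 13513 probe sets. The members and lists were chosen with earlier results of these data known. Named are the members, tested nuclear list genes, the 2 brightest plastid genes per complex, the 2 smallest p-values among assembly, chlorophyll and regulator genes, and the 2 genes most like each member; psaI, psbC, psbD and psbN were named after their values were seen. Sequences were not used here. Alternatives were quantile or median scaling, pseudocounts of 1 and 50, other filters, no trend, a replicate block and left-out arrays. No array correlated with another above 0.986, so none was treated as a copy of another and all were kept. Such correlations cannot show that the samples were biologically separate.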

Additional observations from a re-analysis of the deposited data

Results flagged for a closer look

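Dixon's test compared the outermost array of each group of 4 with its nearest neighbour. It picked out 2 of 74 groups of named genes and array measures, where chance gives about 1 in 20, or 3.7. None of the 5 subunit genes was among them. For HYH, elevated replicate 3 stood at 127.1 units while the other elevated arrays lay between 70.7 and 75.1 units. For the 25S ribosomal RNA control, not-elevated replicate 2 stood at 600.2 units while the other not-elevated arrays lay between 73.4 and 146.5 units. The same array had the lowest deposited signal of all 8 for each of the 5 subunit genes, and the part of the control's signal in this was not tested.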

How the results depend on the processing

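None of the 5 subunit genes passed the threshold in any of 19 alternative settings; the lowest limma adjusted p was 0.265, for PSBY. PSBY, PSAN and ATPC1 kept their direction in all 19. PSBW turned to -0.012 and PSAE-1 to -0.12 on the log2 scale with quantile normalization, alone or with the replicate block, and PSAE-1 to -0.12 in the 7 quantile-normalized arrays without not-elevated replicate 1; the cause was not tested. With 1 array left out PSBW ran from -0.063 to 0.13 and PSAE-1 from -0.10 to 0.11. For every ratio between the genes, the group difference moved by less than 1 pooled SD in the 11 settings run for ratios. Even so, it changed sign for PSBW over PSAE-1 (-0.084 to 0.12) and for PSBY over ATPC1 (-0.0048 to 0.050). In place of 48 probe sets past the threshold there were 50 with the replicate block (same-numbered arrays did not deviate together, with correlations across probe sets of -0.084, -0.18, -0.037 and -0.067), 30 with quantile normalization with or without the block, 28 with a pseudocount of 1, 9 without the trend, 1 without a filter, 119 with quantile normalization without not-elevated replicate 1 and 144 without both replicate 1 arrays. With 1 array left out limma called 0 (without not-elevated replicate 3, with 1400 at an unadjusted p under 0.05) to 132. The plastid photosystem I median fell from 0.22 to 0.10 in the 7 quantile-normalized arrays. The other list medians moved by less than the spread between replicates.

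Among other named genes, quantile normalization turned AT2G26500 to -0.061, atpB to -0.058 and atpE to -0.12, also with the block, and to -0.021, -0.041 and -0.10 in the 7 arrays. Without both replicate 1 arrays PSB27 was 0.11, psbZ 0.054, HCF101 0.057, AT1G42960 0.085 and AT3G49900 -0.0060. With 1 array left out the ranges that crossed 0 were -0.11 to 0.057 for PSB27, -0.059 to 0.038 for ATPC2, -0.036 to 0.11 for AT2G26500, -0.097 to 0.075 for psbZ, -0.058 to 0.081 for atpE, -0.060 to 0.098 for AT3G59840, -0.12 to 0.033 for AT1G42960 and -0.059 to 0.14 for AT3G49900. The number of arrays limits the precision throughout.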
